A study of Mus musculus with 15 samples.

Results

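The collagen genes are the rows of the table whose mouse symbol has the form Col, a number, a and a number, with a mean regularized log (rlog) value of at least 3 over the mice. Of 44 such symbols, 43 met the minimum, among 15261 genes that met it and 24982 symbols in all. *Col10a1*, a collagen of growing cartilage, was just outside at 2.98, and *Col4a4* was the member nearest the minimum at 3.70. By class, 11 members were fibrillar, 6 belonged to the basement membrane type IV network, 9 were fibril-associated collagens (FACITs), and 17 were grouped as others, 6 of these being the chains of type VI.

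The ventral striatum of 15 C57BL/6J mice, pooled over both hemispheres of each animal, was sequenced for its RNA to ask how loss of *Fmr1*, the gene silenced in fragile X syndrome, alters expression there. The groups were 3 *Fmr1* KO males and 4 *Fmr1* KO females, set against 4 WT males and 4 WT females. *Fmr1* is on the X chromosome, so the KO males were hemizygous and the KO females homozygous for a knockout allele carried in all cells. All mice were adults aged 2 to 3 months, and tissue was taken after they had been through behavioral tests. The KO line was bred within itself and the WT mice were of the same strain rather than littermates, so line and genotype cannot be told apart.

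Collagens are secreted or membrane-bound proteins built from 3 alpha chains wound around each other, and each gene encodes a chain. Fibrillar collagens assemble into the cables that carry tension, type IV collagens form the sheets of basement membranes, FACITs decorate the surface of fibrils, and type VI collagens make beaded filaments close to cells. In the brain most collagen lies in the meninges, in the walls of vessels and around the choroid plexus, and some members, such as the membrane-spanning *Col25a1* and the FACIT *Col19a1*, are known as products of neurons.

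The deposited rlog values are on a log2 scale. In them *Fmr1* lay between 9.82 and 10.08 in KO mice and between 10.62 and 10.88 in WT mice, with no overlap (log2 fold change -0.84, adjusted p = 2.9e-07, limma). By qPCR the paper found very low but detectable *Fmr1* RNA in KO striatum, and its western blot detected no *Fmr1* protein. The rlog difference should thus not be read as the share of RNA left, and why it is smaller was not tested. Markers of the labelled tissue were present, with *Pde10a*, a phosphodiesterase of striatal projection neurons, at a mean rlog of 14.37, and none of the 18 listed markers of these neurons was at 0. Markers of other cells and regions were also present. Among them were *Igf2* of leptomeningeal fibroblasts at 9.98, *Rgs5* of mural cells at 11.66 and *Clic6* of the choroid plexus at 8.76. *Clic6* was the most abundant of the 10 choroid plexus markers tested, followed by *Ttr* at 8.61. *Kcne2*, *Slc4a5*, *Tmem72* and *Aqp1* were near the minimum of 3, at 3.02 to 3.45. Over both sexes *Clic6* had a log2 fold change of -0.18, while the other 9 choroid plexus markers had positive ones. All 18 projection neuron markers had negative fold changes over both sexes (median -0.49), and *Penk*, the enkephalin precursor, passed the test. WT female 1 differed from the other WT females in its mean level of these neuron markers, at -0.29 relative to each gene's mean, where the other WT females lay between 0.38 and 0.42. *Fmr1* KO male 1 and *Fmr1* KO female 3 had the highest mean level of thalamic and hypothalamic markers, at 1.15 and 1.14, where the other mice lay between -0.39 and 0.27.

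Several members lie side by side in the genome (GRCm38), and the promoters of type VI and type IV neighbors are shown because these chains join in the same trimers or carry the most negative fold changes. *Col6a2* and *Col6a1* are on chromosome 10 on the minus strand, 85161 bases apart. *Col6a6*, *Col6a5* and *Col6a4* stand in a row on the minus strand of chromosome 9, with gaps of 27917 and 28810 bases. *Col4a1* and *Col4a2* on chromosome 8 face away from each other from start sites that overlap by 22 bases, *Col4a4* and *Col4a3* on chromosome 1 likewise with 71 bases between them, and *Col4a6* and *Col4a5* on the X chromosome with 1308. A promoter entry (250 bases before to 50 bases after the start, RefSeq, GRCm38.p6) matched 34 of the 43 members. The windows of *Col6a1* (chr10:76725995-76726294), *Col6a2* (chr10:76623581-76623880) and *Col6a4* (chr9:106096642-106096941), all on the minus strand, are shown as the type VI chains with the most negative fold changes. The stretch chr8:11312777-11312854, given on the plus strand, is what the windows of *Col4a1* and *Col4a2* share. Capitals mark matches, on either strand, to any of 3 motifs that do not overlap in these windows. The GC box was searched as GGGCGG on both strands. The other motifs were the CCAAT box by those letters alone, and the TATA box, for which the letters searched were TATAAA.
Col6a1: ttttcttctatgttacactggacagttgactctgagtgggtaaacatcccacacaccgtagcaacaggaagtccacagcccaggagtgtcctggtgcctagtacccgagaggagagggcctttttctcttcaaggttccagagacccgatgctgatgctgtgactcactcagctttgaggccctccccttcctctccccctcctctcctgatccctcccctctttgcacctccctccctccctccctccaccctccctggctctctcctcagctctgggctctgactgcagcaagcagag
Col6a2: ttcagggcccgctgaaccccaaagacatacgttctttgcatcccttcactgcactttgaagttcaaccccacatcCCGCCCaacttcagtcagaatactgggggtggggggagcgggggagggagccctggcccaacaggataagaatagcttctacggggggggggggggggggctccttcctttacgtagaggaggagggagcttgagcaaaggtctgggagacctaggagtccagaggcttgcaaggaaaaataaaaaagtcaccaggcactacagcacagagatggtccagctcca
Col6a4: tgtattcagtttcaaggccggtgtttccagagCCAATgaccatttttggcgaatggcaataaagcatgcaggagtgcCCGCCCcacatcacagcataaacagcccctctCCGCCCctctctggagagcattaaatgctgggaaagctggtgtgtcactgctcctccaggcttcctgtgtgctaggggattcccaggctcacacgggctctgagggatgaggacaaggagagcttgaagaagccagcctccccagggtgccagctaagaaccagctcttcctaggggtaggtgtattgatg
Col4a1 and Col4a2, shared: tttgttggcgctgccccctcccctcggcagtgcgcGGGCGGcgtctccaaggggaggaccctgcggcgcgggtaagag

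The window of *Col6a1* held none of these motifs, that of *Col6a2* 1 GC box, that of *Col6a4* 2 GC boxes and 1 CCAAT, and the shared type IV stretch 1 GC box. Of the 34 matched genes, 22 held a GC box in any of their promoter entries, 13 a CCAAT and 4 a TATA box. Of 32851 single mouse promoter entries of the same length, 35.7% held a GC box, 37.4% a CCAAT and 13.6% a TATA box. Members were counted per gene and the mouse promoters per entry, so these shares cannot be compared directly. The start used by RefSeq differed from the GENCODE gene start by 124 bases for *Col6a1* and by 92 bases for *Col6a4*.

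Per length of annotated exons, the highest levels were those of *Col6a1*, *Col4a2*, *Col25a1* and *Col4a1*, while other type VI and type IV chains were lower. Levels between genes are given as the mean rlog minus the log2 of the summed exon length in kilobases. That length takes in every annotated exon of a gene, such as 4380 bases for *Col6a1*, 8326 for *Col6a2* and 12426 for *Col1a2*. It can exceed the length of the transcript in use, which lowers the level of such a gene. *Col6a1*, a type VI chain, led at 9.68, which was 1.90 above the next. *Col4a2* (7.78), *Col25a1* (7.47) and *Col4a1* (7.25) followed, and the step of 0.22 between *Col25a1* and *Col4a1* was smaller than the SD of *Col25a1* in KO (0.30) or WT mice (0.25). *Col11a2*, *Col19a1*, *Col9a3*, *Col11a1* and *Col16a1* came next between 6.59 and 6.11 in steps of 0.05 to 0.17, smaller than each gene's SD among KO or WT mice, and their order is not resolved. The chains of the major fibrils were lower, with *Col1a2* at 4.04, *Col1a1* at 3.75 and *Col3a1* at 3.05. The lowest were *Col4a3* (0.95) and *Col4a4* (0.30), chains known from the basement membrane of the kidney glomerulus. Over the 15 mice the rlog of a member spanned a median of 0.62, with 0.18 for *Col4a4* and 2.01 for *Col6a4* as the extremes, and 8 members spanned more than 1. Exon bases were shared with another gene on either strand by 12 members, whose reads may be divided or shared.

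Over both sexes 2 collagen genes passed the test, *Col12a1*, which rose, and *Col6a2*, which fell in *Fmr1* KO mice (limma with sex as a term, Benjamini-Hochberg adjusted p under 0.05 over 15261 genes, n = 7 KO and 8 WT mice). This is 1 member higher, where 0.491% of all genes tested were called higher, and 1 member lower, where 0.793% were called lower. At an unadjusted p under 0.05, 7 of the 43 members were higher (16.3%, against 11.6% of all genes) and 5 were lower (11.6%, against 11.8%). The groups did not overlap for 1 member on the higher side (*Col12a1*, 0.157% of all genes) and for 0 members on the lower side (0.21% of all genes). Within males, 9 members did not overlap on the higher side and 1 on the lower, beside 1006 and 1309 of 15261 genes. Within females these were 2 and 3 members, beside 548 and 594 genes. In the tissue as a whole, fewer cells of a type and less RNA per cell cannot be told apart. Both calls, and the number of genes called in all, depended on single mice: of 15 fits that each left out a mouse, 8 called *Col6a2* and 4 called *Col12a1*, with log2 fold changes between -0.43 and -0.35 for *Col6a2* and between 0.34 and 0.46 for *Col12a1*. No member was called without WT male 1, 2 or 4, WT female 2, 3 or 4 or *Fmr1* KO male 1, where 5 to 22 genes were called in all, and 1 was called without *Fmr1* KO male 3 or 4 or *Fmr1* KO female 1 or 3, where 21 to 75 were. The count was 5, among 902 genes, when *Fmr1* KO female 2 was omitted, and 6, among 665 to 1444 genes, when the omitted mouse was *Fmr1* KO female 4, WT male 3 or WT female 1.

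**Figure D1:**
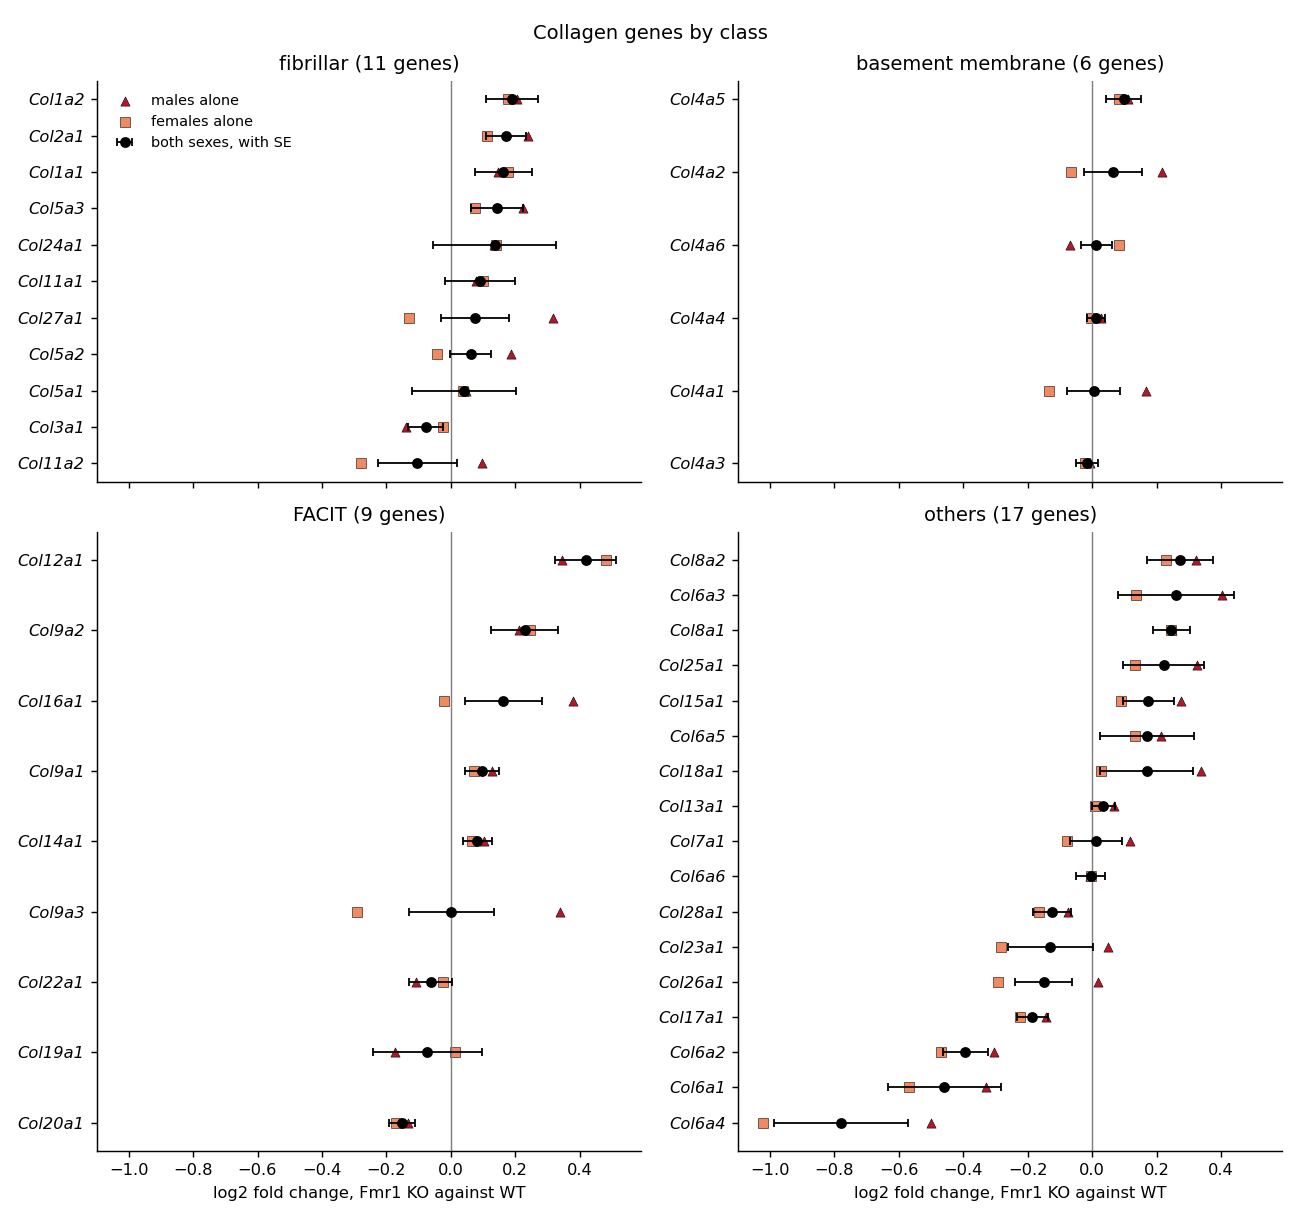
Log2 fold change of each of the 43 collagen genes in *Fmr1* KO against WT mice, by class; black points give both sexes with the standard error as bars, triangles males alone and squares females alone. *Col12a1* (0.42) stands at the top of the FACITs, and *Col6a4* (-0.78), *Col6a1* (-0.46) and *Col6a2* (-0.39) lie at the bottom of the others.

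Among the type VI chains, the 3 with the most negative fold changes were *Col6a4*, *Col6a1* and *Col6a2*, while *Col6a3* and *Col6a5* had positive fold changes and *Col6a6* was near 0. In the classical filament *Col6a1* and *Col6a2* chains join with *Col6a3*, and *Col6a4*, *Col6a5* and *Col6a6* encode chains that resemble *Col6a3*. The rlog of *Col6a2* was 8.56, 8.64 and 8.56 in *Fmr1* KO males and 8.77, 8.66, 8.41 and 8.69 in *Fmr1* KO females, against 8.89, 8.95, 8.65 and 9.07 in WT males and 8.93, 9.10, 9.19 and 9.18 in WT females. All 7 KO mice were at or below 8.77, as was WT male 3 alone among the WT mice, and within each sex no KO mouse reached the lowest WT mouse. *Col6a2* fell by 0.39 on the log2 scale (SE 0.07, adjusted p = 0.0268, limma), to 0.762 of the WT level.

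For its neighbor *Col6a1*, the values were 11.77, 11.98 and 10.93 in *Fmr1* KO males and 11.75, 11.98, 10.76 and 11.81 in *Fmr1* KO females, against 11.69, 12.08, 11.76 and 12.04 in WT males and 12.06, 12.19, 12.27 and 12.05 in WT females. *Fmr1* KO male 4 and *Fmr1* KO female 3 were far below all others, at 10.93 and 10.76, and the other KO mice lay within the range of the WT males. All KO females were below all WT females, with a log2 fold change of -0.57 in females (SE 0.23, adjusted p = 0.316, limma). The log2 fold change of *Col6a1* was -0.46 (SE 0.18, adjusted p = 0.136, limma) over both sexes, and without *Fmr1* KO female 3 it was -0.31.

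*Col6a4* had the widest spread, at 7.21, 7.70 and 8.15 in *Fmr1* KO males and 8.08, 8.15, 7.53 and 7.48 in *Fmr1* KO females, against 7.97, 8.38, 8.02 and 8.37 in WT males and 7.89, 9.12, 9.10 and 9.22 in WT females. WT females 2 to 4 stood above all other mice, at 9.10 or higher, while WT female 1, at 7.89, lay among the KO mice. Its log2 fold change was -0.78 (SE 0.21, adjusted p = 0.0611, limma), -0.50 in males and -1.02 in females, and without WT female 1 it was -0.92 with an adjusted p of 0.014. *Col6a4* overlaps 2 predicted transcripts on the opposite strand, and whether reads were counted by strand is not given in the sources used here. *Col6a3* (0.26, SE 0.18), *Col6a5* (0.17, SE 0.15) and *Col6a6* (-0.0043, SE 0.04) had adjusted p-values of 0.402 or more.

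**Figure D2:**
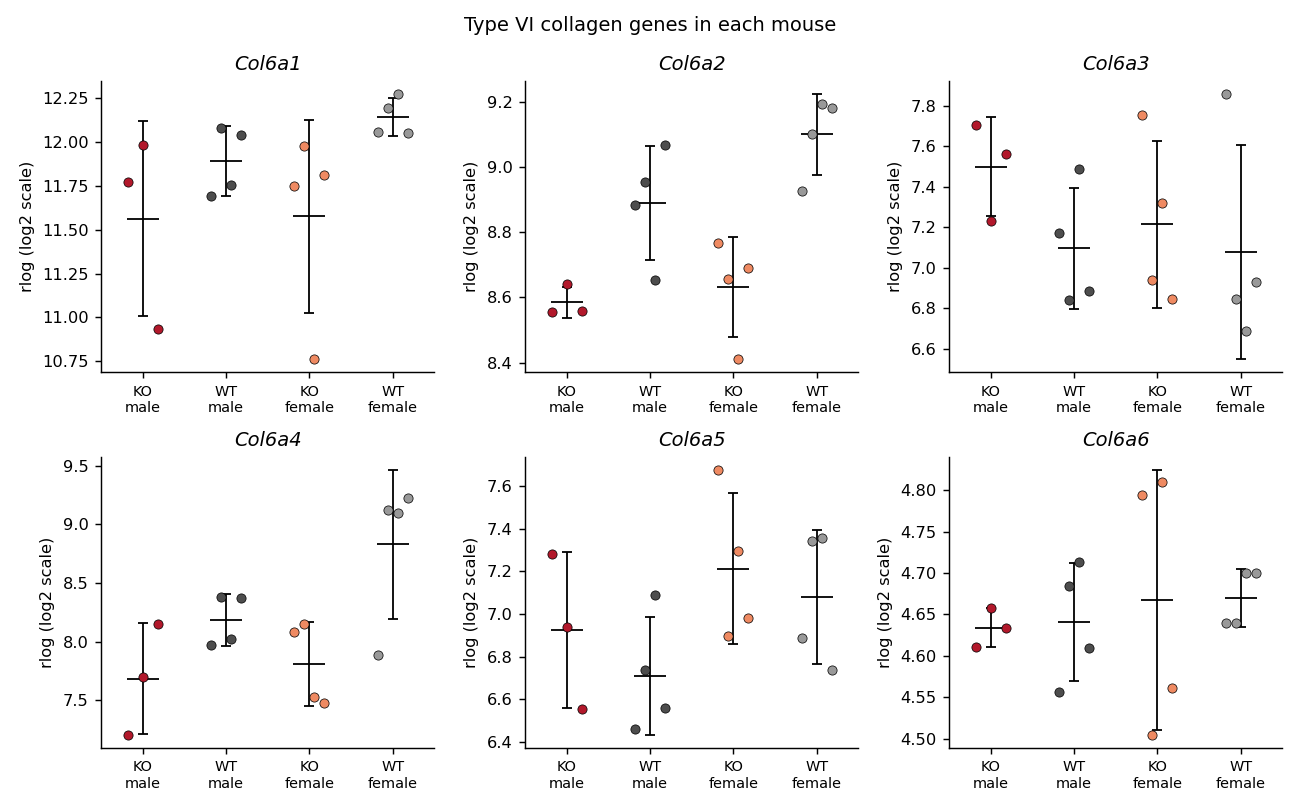
Rlog of the 6 type VI collagen genes in each mouse (points), with mean and SD per group (bars; n = 3 KO males, 4 WT males, 4 KO females and 4 WT females). The KO mice lie below the WT mice of their sex for *Col6a2*. For *Col6a1* the KO females lie below the WT females, and 2 KO mice, at 10.93 and 10.76, are far below all others. WT female 1 stands apart from the other WT females for *Col6a4* at 7.89.

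All 18 projection neuron markers had negative fold changes, so a fit with their mean level as a covariate cannot separate them from genotype. With this mean level in each mouse as a covariate, the log2 fold changes of *Col6a2*, *Col6a4* and *Col6a1* were nearer to 0. They were -0.23 for *Col6a2*, -0.24 for *Col6a4* and -0.23 for *Col6a1*, with adjusted p-values of 1 (limma), and 1 gene of all those tested was called in that fit. With thalamic and hypothalamic markers as the covariate, an alternative chosen after seeing the data, they were -0.31, -0.55 and -0.26. Without *Fmr1* KO male 1 and *Fmr1* KO female 3, also chosen after seeing the data, *Col6a2* was at -0.35 (adjusted p = 0.0956) and *Col6a4* at -0.64 (adjusted p = 0.261).

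The largest positive fold change was that of the FACIT *Col12a1*, which lies on chromosome 9 (79598991 to 79718831, minus strand) and encodes a collagen bound to the surface of type I fibrils. Its rlog was 8.14, 8.15 and 8.27 in *Fmr1* KO males and 8.10, 8.79, 8.23 and 8.36 in *Fmr1* KO females, against 7.86, 8.00, 7.89 and 7.63 in WT males and 7.97, 7.89, 7.61 and 8.08 in WT females. Every KO mouse was above every WT mouse, the closest being *Fmr1* KO female 1 at 8.10 and WT female 4 at 8.08, and *Fmr1* KO female 2 was the highest at 8.79. *Col12a1* rose by 0.42 on the log2 scale (SE 0.10, adjusted p = 0.0475, limma), which is 1.34-fold, with 0.34 in males and 0.48 in females.

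Of the markers of leptomeningeal fibroblasts, cells that make FACIT and fibrillar collagens, 1 of 13 passed the test over both sexes, *Slc13a4*, a sulfate transporter, at 0.47. All 13 had positive fold changes over both sexes (median 0.20), with 13 of 13 positive in females (median 0.29) and 9 of 13 in males (median 0.02), and *Foxc2* and *Dpep1* were under the minimum. Their summed level, as the log2 of the summed linear values, was 11.24 to 11.32 in KO males and 11.38 to 11.59 in KO females, against 11.02 to 11.28 in WT males and 11.17 to 11.34 in WT females. With their mean level as a covariate *Col12a1* was at 0.28 (adjusted p = 0.326, limma), and with the projection neuron markers at 0.48 (adjusted p = 1).

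*Col20a1*, another FACIT, was 6.49, 6.47 and 6.59 in *Fmr1* KO males and 6.60, 6.59, 6.48 and 6.63 in *Fmr1* KO females, against 6.64, 6.70, 6.54 and 6.72 in WT males and 6.70, 6.84, 6.68 and 6.76 in WT females. Within females the genotypes did not overlap, and in males only WT male 3 lay below the highest KO male. The log2 fold change of -0.15 (SE 0.04) had an adjusted p of 0.0596 by limma. *Col20a1* shares exon bases with an unnamed gene on the same strand.

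Of the FACITs, *Col16a1*, which is found in fibril surfaces and near basement membranes, had the smallest p among members in males. It was 9.18, 9.05 and 9.05 in *Fmr1* KO males and 9.11, 8.59, 9.24 and 8.45 in *Fmr1* KO females, against 8.83, 8.75, 8.61 and 8.67 in WT males and 9.19, 8.68, 8.74 and 8.87 in WT females. All KO males were above all WT males, whereas KO females fell into both ends of the range, with females 1 and 3 at 9.11 or higher and females 2 and 4 at 8.59 or lower. The log2 fold change was 0.38 in males (SE 0.07, adjusted p = 0.11, limma) and -0.02 in females.

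*Col19a1*, the FACIT with the highest mean rlog, was 8.62, 9.04 and 9.62 in *Fmr1* KO males and 8.90, 9.58, 8.94 and 9.76 in *Fmr1* KO females, against 9.05, 9.50, 9.02 and 9.49 in WT males and 9.14, 9.06, 9.20 and 9.73 in WT females. Values from 8.62 to 9.76 were spread over both genotypes, and the log2 fold change was -0.07 (SE 0.17, adjusted p = 0.837, limma). The remaining FACITs lay between -0.06 (*Col22a1*) and 0.23 (*Col9a2*), and the class had 6 of 9 members with positive fold changes and a median of 0.08. Over all genes tested 51.1% were positive and the median was 0.0021.

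**Figure D3:**
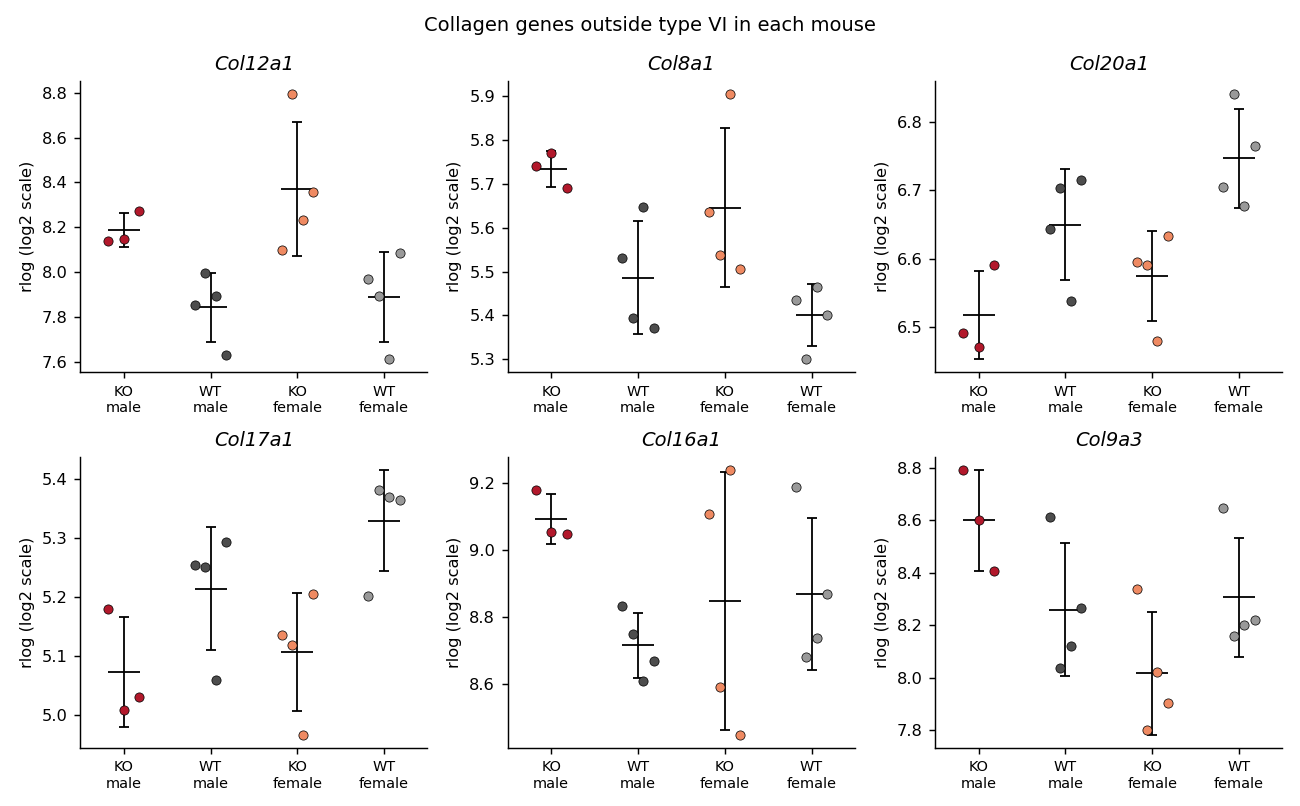
Rlog of 6 collagen genes outside type VI in each mouse (points), with mean and SD per group (bars; n = 3 KO males, 4 WT males, 4 KO females and 4 WT females). Every KO mouse is above every WT mouse for *Col12a1*, KO males lie above WT males for *Col16a1*, and *Col9a3* is higher in KO than WT males and lower in KO than WT females on average.

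*Col8a1* and *Col8a2*, the chains of the short-chain type VIII network found under vascular and corneal endothelium, both had positive fold changes. *Col8a1* was 5.74, 5.77 and 5.69 in *Fmr1* KO males and 5.64, 5.54, 5.90 and 5.51 in *Fmr1* KO females, against 5.53, 5.39, 5.65 and 5.37 in WT males and 5.44, 5.30, 5.47 and 5.40 in WT females. In each sex the KO mice were above the WT mice, and over both sexes WT males 1 and 3, at 5.53 and 5.65, overlapped KO females. The log2 fold change of 0.25 (SE 0.06) was the same in males and females, and its adjusted p of 0.0502 missed the threshold (limma). It ranged from 0.0214 to 0.112 when a mouse was left out, and was under 0.05 in 4 of these 15 fits. *Col8a2* was at 0.27 (SE 0.10, adjusted p = 0.128, limma).

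*Col17a1*, the transmembrane collagen of hemidesmosomes, was 5.18, 5.01 and 5.03 in *Fmr1* KO males and 5.14, 5.12, 4.97 and 5.21 in *Fmr1* KO females, against 5.25, 5.25, 5.06 and 5.29 in WT males and 5.20, 5.38, 5.37 and 5.37 in WT females. WT females 2 to 4 were the highest of all mice, and WT male 3 and WT female 1 lay within the KO range. The log2 fold change was -0.19 (SE 0.05, adjusted p = 0.0569, limma).

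*Col15a1*, a multiplexin of vascular basement membranes that is cleaved to an endostatin-like fragment, was 7.82, 7.64 and 7.70 in *Fmr1* KO males and 7.89, 7.47, 7.80 and 7.48 in *Fmr1* KO females, against 7.44, 7.46, 7.51 and 7.37 in WT males and 7.80, 7.50, 7.35 and 7.64 in WT females. KO males did not overlap WT males, as was so on the higher side for 1006 of 15261 genes, while the females overlapped. It differed by 0.27 on the log2 scale in males (SE 0.07, adjusted p = 0.13, limma) and 0.09 in females. Its relative *Col18a1*, the source of endostatin, was at 0.17 over both sexes (SE 0.14). Among the others as a class, 9 of 17 members were positive, with a median of 0.01. The anchoring fibril gene *Col7a1* was at 0.01 and *Col13a1*, a transmembrane collagen, at 0.04. The transmembrane genes *Col23a1* and *Col25a1* were at -0.13 and 0.22, and *Col26a1* and *Col28a1* at -0.15 and -0.12, each with an adjusted p of 0.219 or more (limma).

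No fibrillar collagen passed the test over both sexes, and 9 of 11 had positive fold changes with a median of 0.09. *Col1a2* and *Col1a1*, the chains of type I, were at 0.19 (SE 0.08, adjusted p = 0.167) and 0.16 (SE 0.09, adjusted p = 0.285), and *Col2a1*, best known from cartilage, at 0.17 (SE 0.06, adjusted p = 0.118, limma). *Col3a1*, the collagen of reticular fibers and vessel walls, was at -0.08 and *Col11a2* at -0.10, the only negative ones. *Col11a1*, the fibrillar gene with the highest mean rlog, was 9.63, 10.18 and 10.09 in *Fmr1* KO males and 10.15, 9.84, 9.96 and 10.14 in *Fmr1* KO females, against 9.93, 9.95, 9.90 and 9.78 in WT males and 10.30, 9.57, 9.65 and 10.16 in WT females. The genotypes overlapped throughout, with the highest and the lowest value both in WT females, and the log2 fold change was 0.09 (SE 0.11, adjusted p = 0.664, limma). The type V and the remaining fibrillar genes lay between 0.04 (*Col5a1*) and 0.14 (*Col5a3*).

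The type IV chains of basement membranes differed least between the genotypes, from -0.01 for *Col4a3* to 0.10 for *Col4a5*, with a median of 0.01 and adjusted p-values of 0.282 or more (limma). *Col4a2* was 10.65, 10.57 and 10.50 in *Fmr1* KO males and 10.68, 10.39, 10.71 and 10.30 in *Fmr1* KO females, against 10.41, 10.30, 10.25 and 10.46 in WT males and 10.87, 10.40, 10.34 and 10.74 in WT females. *Col4a1*, its partner in the type IV trimer, was 10.34, 10.16 and 10.31 in *Fmr1* KO males and 10.11, 10.01, 10.20 and 9.91 in *Fmr1* KO females, against 10.13, 10.08, 9.95 and 10.25 in WT males and 10.44, 10.09, 9.91 and 10.34 in WT females. WT female 1 held the highest value of both genes, and KO males were above all WT males for *Col4a2* while the females overlapped. The log2 fold changes were 0.07 (SE 0.09) for *Col4a2* and 0.01 (SE 0.08) for *Col4a1* over both sexes, 0.22 and 0.17 in males, and -0.07 and -0.13 in females.

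No collagen gene passed the test in males (0.00655% of all genes called) or in females (0.0131%) alone. At an unadjusted p under 0.05, 11 of 43 members were higher and 2 lower in KO males than in WT males (25.6% and 4.65%), against 8.75% and 8.45% of all genes. In females 2 were higher and 7 lower (4.65% and 16.3%), against 6.55% and 7.93% of all genes. The median fold change of the members was 0.12 in males, where 31 of 43 were positive, and 0.01 in females, where 22 were positive, beside medians of 0.00018 in males and 0.0028 in females for all genes. By class the medians in males were 0.15 for fibrillar, 0.07 for basement membrane, 0.13 for FACIT and 0.07 for other collagens, and in females 0.07, -0.012, 0.014 and -0.0022 in the same order. The highest in males were *Col6a3* (0.40), *Col16a1* (0.38) and *Col12a1* (0.34), and the lowest in females were *Col6a4* (-1.02), *Col6a1* (-0.57) and *Col6a2* (-0.47).

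The difference between the sexes was tested as an interaction, the fold change in females minus that in males, in which no collagen gene and 0% of all genes passed. At an unadjusted p under 0.05 there were 2 members (4.65%), against 5.98% of all genes. The interaction was negative in 33 of 43 members and positive in 10 (23.3%), where 51.9% of all genes were positive. These shares were not tested. *Col9a3*, a chain of the FACIT type IX, was 8.79, 8.60 and 8.41 in *Fmr1* KO males and 8.34, 7.80, 8.02 and 7.90 in *Fmr1* KO females, against 8.61, 8.04, 8.12 and 8.27 in WT males and 8.65, 8.16, 8.20 and 8.22 in WT females. KO males 1 and 3 and WT female 1 and WT male 1 were high, and KO females 2 to 4 held the lowest values of all mice together with WT male 2. The log2 fold change was -0.29 in females and 0.34 in males, and the interaction -0.63 (SE 0.22, adjusted p = 0.791, limma). *Col9a3* overlaps *Tcfl5* on the opposite strand.

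*Col27a1*, a fibrillar collagen of cartilage, was 8.75, 8.10 and 8.32 in *Fmr1* KO males and 8.32, 8.15, 8.41 and 8.17 in *Fmr1* KO females, against 8.28, 8.00, 7.87 and 8.13 in WT males and 8.50, 8.34, 8.23 and 8.50 in WT females. The overlap was wide in both sexes, with *Fmr1* KO male 1 the highest of all mice at 8.75. The log2 fold change was -0.13 in females and 0.32 in males (interaction -0.45, SE 0.18, adjusted p = 0.791, limma). *Col4a1* was next, with an interaction of -0.30 (SE 0.15, adjusted p = 0.791, limma).

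**Figure D4:**
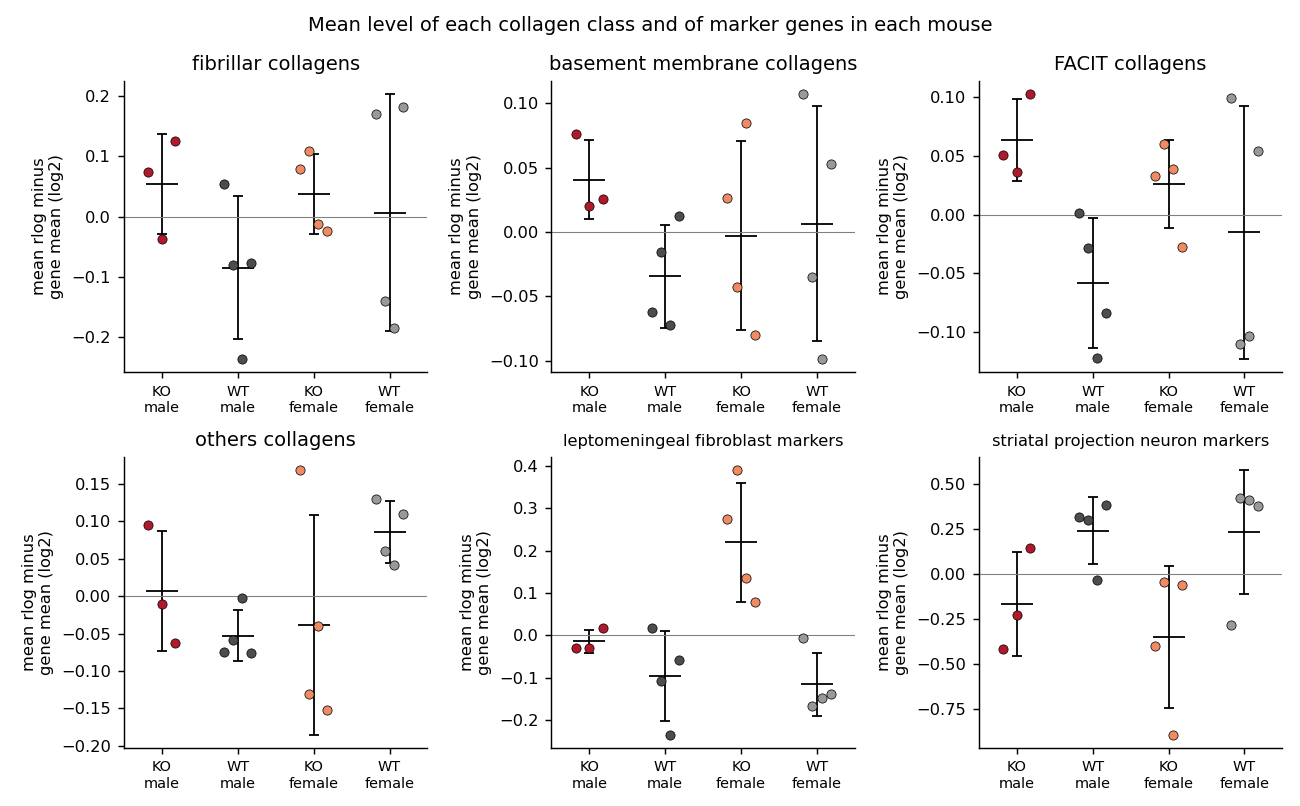
Mean over genes of the rlog minus each gene's mean, in each mouse (points), for the 4 collagen classes and for markers of leptomeningeal fibroblasts and striatal projection neurons, with mean and SD per group (bars; n = 3 KO males, 4 WT males, 4 KO females and 4 WT females). WT females 1 and 4 lie above WT females 2 and 3 for fibrillar, basement membrane and FACIT collagens, and projection neuron markers range from -0.89 in a KO female to 0.42 in WT females.

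Taken per mouse as the mean over a class, the fibrillar collagens were -0.04 to 0.13 in KO males and -0.02 to 0.11 in KO females, against -0.24 to 0.05 in WT males and -0.19 to 0.18 in WT females. The WT females were split, with females 1 and 4 at 0.17 and 0.18 and females 2 and 3 at -0.14 and -0.19, and the same mice were split for the basement membrane and FACIT genes. The basement membrane genes were 0.02 to 0.08 in KO males, above the -0.07 to 0.01 of WT males, and KO females (-0.08 to 0.08) lay within the WT females (-0.10 to 0.11). Markers of the choroid plexus differed in males in the same direction, at a mean of 0.29 to 0.36 in KO males and -0.20 to 0.06 in WT males, and 9 of the 10 that could be tested were positive in males (median 0.27), while *Steap1* and *Oca2* were under the minimum. With that mean as a covariate the median of the fibrillar collagens in males was -0.06 and that of the FACITs 0.04. The mean did not overlap between KO and WT males, so this fit cannot separate the markers from genotype. Mural cell markers were positive in 3 of 12 over both sexes (median -0.04, *Tagln* lower and called, *Cnn1* under the minimum), in 7 of 12 in males (median 0.03) and in 0 of 12 in females (median -0.12). Endothelial markers were positive in 0 of 13 over both sexes (median -0.06), in 9 of 13 in males (median 0.02) and in 0 of 13 in females (median -0.12). The part of these cells in the differences between the collagen genes was not tested.

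No collagen gene passed the test between WT females and WT males, where 2.82% of all genes did. At an unadjusted p under 0.05, 3 members were higher in WT females than in WT males, *Col27a1* (0.32), *Col6a2* (0.21) and *Col6a4* (0.65), and none was lower, so 6.98% of members stood beside 15% of all genes. The adjusted p-values of these members were 0.226 to 0.294 (limma). Over all 43 members, 35 had positive fold changes in WT females against WT males (81.4%), against 51.6% of all genes. These shares were not tested.

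Chains of the same trimer were compared within groups, as each mouse's deviation from its group mean over the 15 mice. Of 14 chain combinations, 3 correlated after Benjamini-Hochberg adjustment (2-sided permutation test within groups, 100000 draws). How often other combinations of genes correlate in this way was not tested. *Col4a1* and *Col4a2*, which share a promoter region, had r = 0.911 (permutation p = 0.00046, adjusted p = 0.00525) and rho = 0.879 (permutation p = 0.00065, adjusted p = 0.0091). *Col9a2* and *Col9a3*, on different chromosomes, had r = 0.781 (permutation p = 0.00075, adjusted p = 0.00525) and rho = 0.771 (permutation p = 0.00355, adjusted p = 0.0203). *Col1a1* and *Col1a2* had r = 0.858 (permutation p = 0.00229, adjusted p = 0.0107) and rho = 0.818 (permutation p = 0.00436, adjusted p = 0.0203). Without the 2 mice farthest from the median of the first chain, r was 0.86, 0.815 and 0.797 for these combinations.

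Head-to-head position was not always accompanied by a correlation. *Col4a3* with *Col4a4* had r = -0.157 (permutation p = 0.638, adjusted p = 0.8) and rho = -0.00714 (permutation p = 0.987), and *Col4a5* with *Col4a6* r = 0.0713 (permutation p = 0.83) and rho = 0.0679 (permutation p = 0.841). *Col6a1* and *Col6a2* had r = 0.588 (permutation p = 0.0183, adjusted p = 0.0642) and rho = 0.45 (permutation p = 0.0807, adjusted p = 0.226), with r = 0.474 without *Fmr1* KO female 3 and *Fmr1* KO male 4. The other 8 combinations had r from -0.419 to 0.345 and adjusted p-values of 0.149 or more by permutation. Rlog values of genes with few reads are drawn toward their mean, which also narrows the deviations of *Col4a3* and *Col4a4*.

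**Figure D5:**
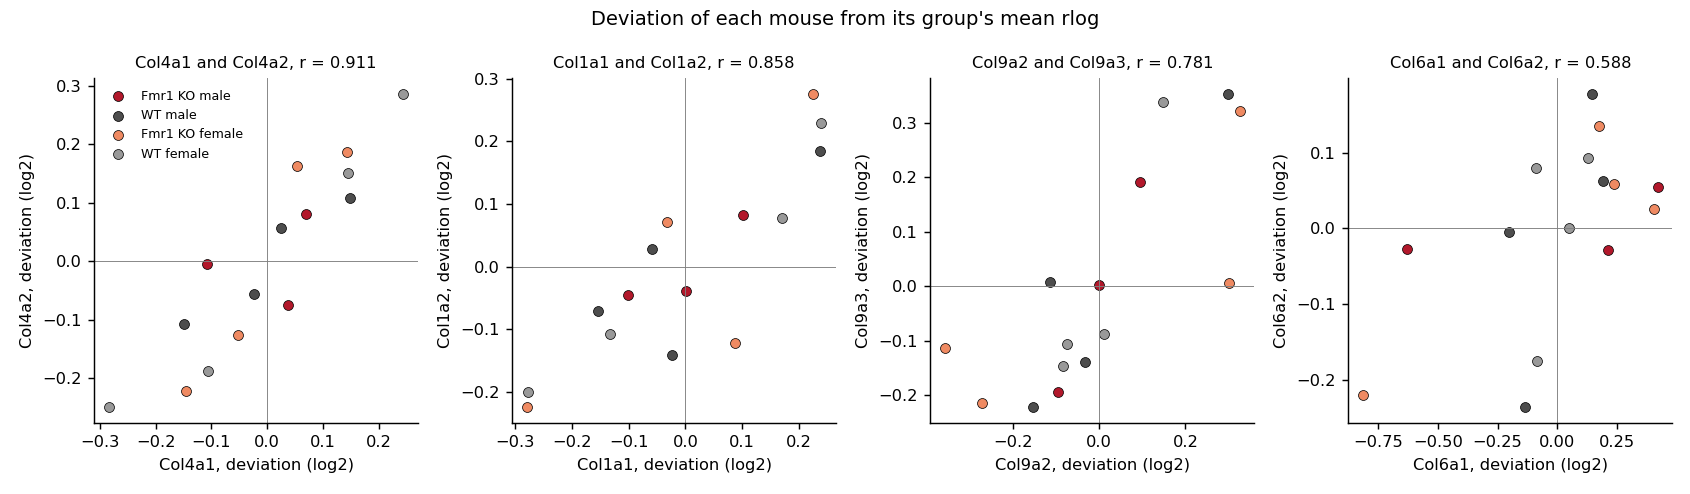
Deviation of each mouse from the mean rlog of its group for 4 combinations of chains that form a trimer (log2 scale, 15 mice, colors give the group). The points follow a line for *Col4a1* and *Col4a2* (r = 0.911) and are looser for *Col6a1* and *Col6a2* (r = 0.588), where KO mice at the left set much of the range.

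Of the genes in 5 lists acting on collagen (29, 10, 10, 16 and 8 tested), 1 passed the test over both sexes. Over all genes tested, 0.491% were called higher and 0.793% lower. Among 29 tested enzymes and chaperones of collagen synthesis and crosslinking, 17 had positive fold changes (median 0.02). *Plod2*, a lysyl hydroxylase that prepares collagen for crosslinking, rose by 0.24 (SE 0.05, adjusted p = 0.0403, limma), and *Adamts3*, a protease that removes the propeptide, was at -0.44 (SE 0.13, adjusted p = 0.0805). None of the 10 receptors passed (6 positive, median 0.06), with *Ddr2*, a receptor kinase for fibrillar collagen, at 0.18 (adjusted p = 0.162) and *Adgrg1* at 0.23 (adjusted p = 0.177). None of the 10 proteases and inhibitors of collagen degradation passed (8 positive, median 0.07), with *Mmp9* at 0.07 and *Mmp14* at 0.14.

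Of 16 other basement membrane genes, 6 had positive fold changes (median -0.03) and none passed, with the laminin chain *Lamb1* at -0.29 (adjusted p = 0.0953, limma). Of 8 small proteoglycans that bind collagen fibrils, 5 were positive (median 0.08) and none passed. *Fmod*, which binds type I fibrils, was at 0.33 (SE 0.09, adjusted p = 0.0694) and *Ogn* at 0.24 (adjusted p = 0.142, limma). An unadjusted p under 0.05 was found for 7 of the 29 enzymes and chaperones, 2 of the 10 receptors, 2 of the 10 proteases and inhibitors, 2 of the 16 basement membrane genes and 2 of the 8 proteoglycans, against 23.4% of all genes.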

How the data were processed

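Ventral striatum RNA was sequenced from 15 mice. The authors made stranded mRNA libraries, aligned paired reads to UCSC mm10 with STAR and took counts per gene into DESeq2, and the deposited values are rlog values on a log2 scale made from all libraries together. No version of the annotation and no strand setting is given in the sources used here. Read totals are not part of the values, so depth is unknown and precision rests on how far mice of a group differ. A further *Fmr1* KO male was excluded by the authors and is not analysed here. No column was left unused.

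A mean rlog of 3 over all mice was the minimum for testing. Tests used limma 3.58.1 (R 4.3.3, variance trend, 2-sided, Benjamini-Hochberg over 15261 genes, threshold 0.05), with sex as a term, in each sex alone, and as contrasts of the 4 group means for the interaction and for WT sexes. The fits were tested on simulated data. Collagen classes, 5 lists of genes acting on collagen and 9 marker lists came from general knowledge. The collagen genes, lists and alternatives were chosen with earlier results of these data known. Values per mouse are given for members past the threshold in any fit, the 6 with the smallest p over both sexes, the 3 with the smallest p in males, in females and in the interaction, and the member with the highest mean rlog of each class. Of each list of genes acting on collagen the called genes and the 2 with the smallest p are named, and of each marker list the most abundant member. Trimer chains were correlated in Python 3.11.15, and plots used matplotlib 3.10.9. Gene positions came from GENCODE (GRCm38), which matched all 43 members, and promoters from RefSeq. Alternatives were a minimum of 5 or none, no variance trend, median centring, sample quality weights, a replicate block, 3 marker scores as covariates and leaving out each mouse. A thalamic and hypothalamic score as a covariate, and the omission of *Fmr1* KO male 1 and *Fmr1* KO female 3 together, were chosen after seeing the data.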

Additional observations from a re-analysis of the deposited data

Results flagged for a closer look

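Among the 15 collagen genes with values per mouse, each of the 45 groups of 4 mice was checked for a mouse far from the rest, which chance gives in about 1 of 20 groups, and 3 were found. All were WT female 1. *Col6a4* was at 7.885 in this mouse, where the nearest of the other WT females was at 9.097 and the farthest at 9.223. *Col17a1* was at 5.201, with the others at 5.365 to 5.383. *Col9a3* was at 8.646, above the others at 8.161 to 8.22. WT female 1 also had a mean level of striatal projection neuron markers of -0.29, against 0.38 to 0.42 in the other WT females. Leaving this mouse out gave 6 called members over both sexes, and fits with the marker score as a covariate are given in the text. Whether its marker level accounts for its collagen values was not tested.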

How the results depend on the processing

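Over both sexes 2 collagen genes were called. The count was 1 without a minimum on the mean rlog (51 genes called in all), 1 with centring on medians (162 genes) and 15 with sample quality weights (4767 genes), and 0 with the leptomeningeal fibroblast score, 0 with the projection neuron score and, chosen after seeing the data, 0 with the thalamic and hypothalamic score as a covariate and 0 without *Fmr1* KO male 1 and *Fmr1* KO female 3, with 1 to 6 genes called in all in these fits. Leaving out a mouse gave 0 to 6 (5 to 1444 genes). In males it was 0, and 11 with quality weights (1865 genes) and 0 to 2 with a mouse left out (2 without WT male 3, among 322 genes). In females it was 0 to 1 with a mouse left out (1 without WT female 1, among 37 genes). Between WT sexes it was 1 with quality weights (1436 genes) and 0 to 1 with a mouse left out (1 without WT female 1, among 317 genes).

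With the replicate number as a replicate block, 6 members were called, among 925 genes. The labels name no shared litter or batch. Deviations of same-numbered mice correlated at -0.191 to 0.439, above 0.1 in 5 of 7 combinations (3 of 3 in males and 2 of 4 in females). Of 14 mice, 6 correlated best with their own number (4 of 6 males and 2 of 8 females). A pairing over both sexes was therefore not taken as given. A pairing in males is not excluded, and the main fits hold no block. In males alone the block called 0 members and 0 genes.

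Medians moved as follows. With a minimum of 5 those in males were 0.14 for basement membrane genes and 0.21 for FACITs. With quality weights that of FACITs in females was 0.093. With the fibroblast score those in females were -0.14 for all members, -0.14 for fibrillar and -0.15 for other collagens. With the choroid plexus score those in males were 0.042 for all members, -0.060 for fibrillar genes and 0.037 for FACITs. With the projection neuron score they were -0.024 for all members, -0.025 for FACITs and -0.12 for others over both sexes, -0.042 for others in males, and -0.088 for all members, -0.084 for fibrillar genes, -0.075 for FACITs and -0.16 for others in females. With the thalamic and hypothalamic score they were -0.012 for all members, 0.013 for FACITs and -0.080 for others over both sexes, and -0.13 for others in females, and without *Fmr1* KO male 1 and *Fmr1* KO female 3 -0.10 for others in females. With a mouse left out, the median in females ranged from -0.061 to 0.082 for FACITs and from -0.10 to 0.018 for others.

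Of the 19 single-gene values recomputed, which do not cover every member, the direction turned for *Col19a1* and *Col4a2*, neither of them called. *Col19a1* was at 0.071 with the choroid plexus score, 0.31 with the projection neuron score, 0.25 with the thalamic and hypothalamic score, 0.10 without *Fmr1* KO male 1 and *Fmr1* KO female 3 and 0.034 without *Fmr1* KO male 1, with a range of -0.17 to 0.03 with a mouse left out. *Col4a2* was at -0.10 with the projection neuron score and -0.064 with the thalamic and hypothalamic score. The cause of these shifts was not tested.

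Depth is unknown, and rlog values make the differences of weakly expressed members such as *Col4a3*, *Col4a4*, *Col13a1* and *Col9a1* smaller. Groups of 3 or 4 mice gave no called member in either sex alone, while 13 members in males and 9 in females had an unadjusted p under 0.05. Bulk tissue mixes cell types, and the marker scores used as covariates also vary with genotype.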

Other observations

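Markers of the remaining cell types gave the following values over both sexes, beside 0.0021 for the median of all genes tested. Of 12 oligodendrocyte markers, which include *Mbp* of myelin at a mean rlog of 15.40, 11 had positive fold changes with a median of 0.06. Of 10 astrocyte markers, led by the glutamate transporter *Slc1a2* at 15.98, 5 were positive with a median of 0.0058. Of 10 markers of cortical excitatory neurons, led by the vesicular glutamate transporter *Slc17a7* at 11.48, 7 were positive with a median of 0.15, and *Lamp5* was lower and passed the test (-0.51, adjusted p = 0.0473, limma). Of 13 thalamic and hypothalamic markers, led by *Amotl1* at 10.71, all had positive fold changes (median 0.56) and none passed, with 5 higher at an unadjusted p under 0.05, against 11.6% of all genes, and *Hcrt* was under the minimum. *Flt1* was the most abundant of the endothelial markers at 11.08. None of the listed markers was at 0.

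The small proteoglycans that bind collagen fibrils had a median fold change of 0.13 in females, where 6 of 8 were positive, and 0.02 in males, where 5 of 8 were positive. *Fmod* was at 0.52 in females (adjusted p = 0.206, limma) and at 0.12 in males (adjusted p = 0.66). Other basement membrane genes had a median of -0.11 in females, where 3 of 16 were positive, and 0.05 in males, where 9 of 16 were positive. None of these genes passed the test of the interaction, which had unadjusted p-values under 0.05 for 3 of the 8 proteoglycans and 5 of the 16 basement membrane genes, against 5.98% of all genes.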
